A study of Mus musculus with 6 samples.

Results

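Transcripts of Polycomb repressive complex 2 (PRC2) were compared between mouse embryonic stem cells with and without E-cadherin. The 9 genes, Ezh1, Ezh2, Eed, Suz12, Jarid2, Mtf2, Phf19, Phf1 and Aebp2, were chosen by name as core and accessory subunits and were found in the count table by their Ensembl identifiers. All 9 were present among the 55401 genes of the table, and all 9 were among the 17325 genes with enough counts to be tested. Both groups were V6.5 embryonic stem cells, a line from a hybrid mouse embryo, and neither had a stated treatment. The first group was wild type (WT). The second was Cdh1-/-, with both copies of the gene for the adhesion protein E-cadherin disrupted, and is called the knockout here. Each group had 3 libraries of total RNA, with the replicate letters A, B and C. The labels do not say how many knockout clones were used or whether the replicates were separate cultures, so p-values measure only the spread between these samples, which may be technical.

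PRC2 is the enzyme complex that methylates histone H3 to give H3K27me3, a mark of silent genes. Ezh2 or its paralog Ezh1 carries the catalytic SET domain, and neither works without Suz12 and Eed. Accessory subunits divide the complex into 2 forms. The Polycomblike proteins Mtf2, Phf19 and Phf1 bind CpG-rich DNA in one form, and Jarid2 and Aebp2 belong to the other. In embryonic stem cells PRC2 sits at CpG islands of developmental genes, the Hox clusters among them.

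The member that passed the test of the knockout against WT was Jarid2. In GRCm38 the gene spans 44730774 to 44921643 of chromosome 13, on the plus strand. RefSeq places a pair of transcript starts there, and counts summed over the gene do not show which of them was used. The bases in front of both are shown because Jarid2 was the subunit gene that fell, and those of Ezh2 are shown beside them because that gene was not called. All are RefSeq windows of build GRCm38.p6, written 5′ to 3′ on the strand of the gene and kept free of annotated exons. Capitals mark a CCAAT box (CCAAT) or a GC box (GGGCGG) on either strand. Each Jarid2 stretch holds 250 bases, while that of Ezh2 holds 125 and ends 29 bases before its start. CCAAT boxes 11 bases before the start of Ezh2 and 16 bases after the second start of Jarid2 lie outside these stretches.
Jarid2, first start, chr13:44730524-44730773, plus strand: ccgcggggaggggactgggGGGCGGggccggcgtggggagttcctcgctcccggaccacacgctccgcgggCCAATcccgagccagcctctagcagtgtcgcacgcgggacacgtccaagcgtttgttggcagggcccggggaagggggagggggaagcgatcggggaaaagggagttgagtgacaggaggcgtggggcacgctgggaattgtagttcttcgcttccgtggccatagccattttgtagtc
Jarid2, second start, chr13:44731021-44731270, plus strand: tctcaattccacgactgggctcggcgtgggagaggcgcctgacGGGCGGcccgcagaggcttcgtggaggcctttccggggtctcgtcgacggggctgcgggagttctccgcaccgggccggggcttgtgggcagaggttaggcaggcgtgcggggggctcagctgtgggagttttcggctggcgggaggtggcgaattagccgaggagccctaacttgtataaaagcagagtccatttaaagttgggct
Ezh2, chr6:47595059-47595183, minus strand: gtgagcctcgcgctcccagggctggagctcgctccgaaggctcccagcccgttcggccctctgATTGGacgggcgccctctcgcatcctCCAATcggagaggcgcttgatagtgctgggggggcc

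RefSeq gave 13 promoter windows of 300 bases for the 9 genes. A CCAAT box lay in 7 of these windows, against 37.4% of all 32851 mouse windows of that length. A GC box lay in 8 of the 13, against 35.7% of all windows. An E2F motif, searched as TTTGGCGC or TTTCCCGC on both strands, lay in 3 of the 13, those of Ezh2, Suz12 and Phf19, against 1.56% of all windows. These are letter matches in a fixed window and were not tested.

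The libraries held between 18020719 and 23381942 counts. The first principal component, with 49.3% of the variance, separated the genotypes. The second, with 20.3%, set knockout replicate A (32.5) apart, with WT replicate C (-19.5) and knockout replicate C (-18.2) at the opposite end. Cdh1, the disrupted gene, was at 569, 571 and 537 in replicates A, B and C of WT, in counts per 1000000 after TMM scaling (CPM), and at 168, 183 and 166 CPM in the knockout. Its mean was 559 ± 19.1 CPM in WT and 173 ± 9.05 in the knockout (SD over 3 libraries each). Of 8 embryonic stem cell markers, 0 were called by edgeR at an adjusted p under 0.05, against 13.3% of all tested genes. At an unadjusted p under 0.05, 2 were higher, where 4622 of all 17325 tested genes passed in either direction. The summed level of the 8 markers lay between 3609 and 4004 CPM in WT and between 3632 and 4464 CPM in the knockout. All 6 primitive endoderm markers were called higher in the knockout, against 7.6% of all tested genes. Their log2 fold changes lay between 1.01 and 2.18. Gata4 and Sox7 lie on chromosome 14 (median log2 fold change 0.53) and Sox17 on chromosome 1 (median -0.33). The summed level of the 6 markers lay between 88.9 and 168 CPM in the knockout and between 32.1 and 54.1 CPM in WT. The 8 fibroblast markers, which would show feeder cells, summed to between 64.4 and 86.2 CPM in WT and between 41.8 and 72.4 CPM in the knockout. Of the 5 fibroblast markers tested, 1 was called lower and 0 higher, against 5.71% and 7.6% of all tested genes. All 5 had a log2 fold change below 0, with a median of -0.82. Dcn, 1 of the 8, was at 0 in WT replicate B and knockout replicates B and C. It was highest in WT replicate A, at 0.810 CPM. The 5 trophoblast markers summed to between 104 and 109 CPM in WT and between 46.7 and 64.0 CPM in the knockout. Of the 4 tested, 1 was called lower and 0 higher, against 5.71% and 7.6% of all tested genes. Tfap2c alone averaged 96.2 CPM in WT and 46.2 in the knockout. Median log2 fold changes were -0.33 for chromosome 1 and 0.53 for chromosome 14, neither of which carries a PRC2 subunit gene of the 9, against -0.01 for all tested genes.

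Of the 9 subunit genes, 1 was called lower and 0 higher at an adjusted p under 0.05. At an unadjusted p under 0.05, 1 was higher and 3 were lower, where 4622 of all 17325 tested genes passed in either direction. Over all tested genes 13.3% were called, 5.71% lower and 7.6% higher, so the share of subunit genes called was near that of the transcriptome. The libraries of the 2 genotypes did not overlap for 4 of the 9 genes, against 30.7% of all tested genes. Knockout libraries were higher for 1 of the 4, Eed (15.7% of all tested genes), and lower for 3, Jarid2, Ezh2 and Aebp2 (15% of all tested genes). Their log2 fold changes lay between -0.50 and 0.25, with a median of 0.01. The change was above 0 for 5 of the 9, against 48.9% of all tested genes.

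**Figure D1:**
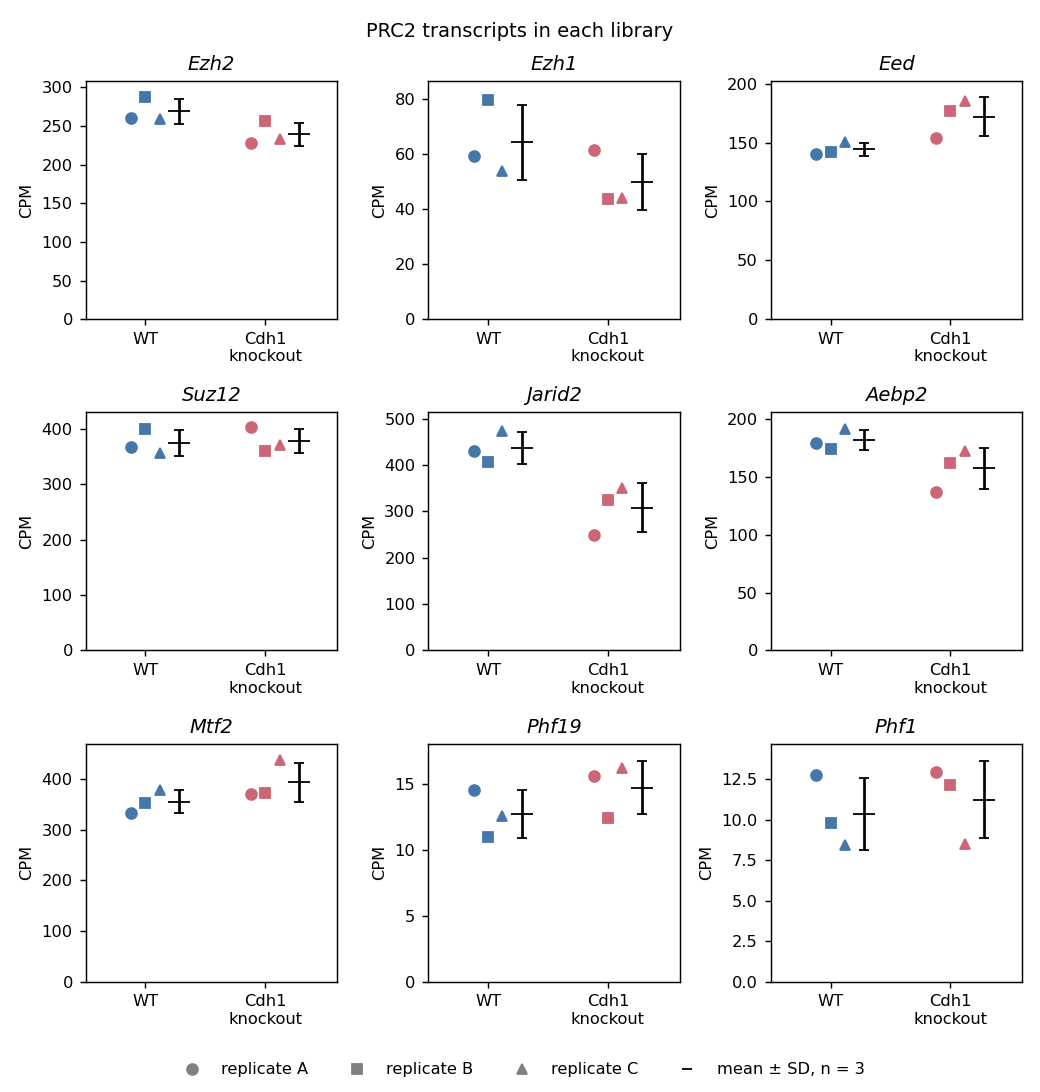
Level of each PRC2 subunit transcript in CPM (y axis, from 0) in WT and Cdh1 knockout libraries. Symbols mark replicates A, B and C, and bars mark the mean ± SD of 3 libraries. Jarid2 lay between 407 and 473 CPM in WT and between 249 and 350 CPM in the knockout, while the 2 genotypes overlapped for Suz12, Ezh1, Mtf2, Phf19 and Phf1.

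Levels between genes were compared as CPM per kilobase of exon, with all annotated exon bases of a gene as the length. The transcripts in use may be shorter, so the effect of transcript length is removed only in part. In WT, Ezh2 stood first at 96.1 ± 5.71 CPM per kilobase, followed by Mtf2 at 87.5 ± 5.70 and Suz12 at 85.6 ± 5.24, and the ranges of these neighbours overlapped. Jarid2 at 70.9 ± 5.49 and Eed at 69.8 ± 2.68 CPM per kilobase came next and also overlapped. Aebp2 followed at 22.2 ± 1.07 and Ezh1 at 10.5 ± 2.23 CPM per kilobase, each apart from its neighbours. Phf1 at 3.92 ± 0.839 and Phf19 at 3.40 ± 0.478 CPM per kilobase closed the order and overlapped. In the knockout, Mtf2, Suz12, Ezh2 and Eed lay between 83.2 and 97.0 CPM per kilobase on average, and Jarid2, at 50.01 ± 8.59, stood apart below them.

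Jarid2 encodes a relative of the Jumonji demethylases that has lost the enzymatic activity and helps bring PRC2 to chromatin. Its level was 430, 407 and 473 CPM in replicates A, B and C of WT. In knockout replicates A, B and C it was 249, 325 and 350 CPM. Every knockout library lay under every WT library, and knockout replicate A was the lowest. The mean fell from 437 ± 33.8 CPM to 308 ± 52.9 CPM (SD, n = 3 each), and the fitted level in the knockout was 70.5% of WT. On the log2 scale this was a change of -0.50 ± 0.11 (SE), with a 95% interval from -0.75 to -0.26. The adjusted p from the quasi-likelihood test of edgeR was 0.00817.

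In bulk RNA, fewer cells expressing Jarid2 and less Jarid2 RNA per cell cannot be told apart. The call was lost without WT replicate C, where the log2 change was -0.43 (adjusted p = 0.0515). When knockout replicate A was left out it was -0.37 (adjusted p = 0.00719). No exon base of Jarid2 is shared with another annotated gene. The primitive endoderm markers were higher in the knockout, where Jarid2 was lower. In knockout replicates A, B and C their sum was 88.9, 107 and 168 CPM, and Jarid2 was at 249, 325 and 350 CPM. Within the knockout the libraries stood in the same order for both, but in WT they did not. In WT replicates A, B and C the marker sum was 32.1, 45.6 and 54.1 CPM, and Jarid2 was at 430, 407 and 473 CPM. The part of these markers in the result was not tested.

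Aebp2 (chr6:140622663-140678472, plus strand, GRCm38 as for all genes here) encodes a zinc finger protein that joins PRC2 together with Jarid2. It was counted at 179, 174 and 191 CPM in replicates A, B and C of WT, and at 137, 162 and 172 CPM in the knockout replicates. The groups did not overlap, but the highest knockout library lay 2.34 CPM under the lowest WT library. The log2 change of -0.21 (95% interval -0.41 to -0.0044) did not pass (edgeR adjusted p = 0.178).

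Ezh2 (chr6:47530139-47595030, minus strand) encodes the main methyltransferase of PRC2 in dividing cells. Its WT level was 260, 288 and 260 CPM in replicates A, B and C, and its knockout level was 228, 256 and 234 CPM. All knockout libraries lay under all WT libraries, by a narrow margin between knockout replicate B and WT replicate C. Ezh2 differed by -0.17 on the log2 scale (95% interval -0.35 to 0.01, edgeR adjusted p = 0.222). In linear terms the interval ran from 78.4% to 101% of the WT level.

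Ezh1 (chr11:101191115-101226463, minus strand), the paralog that is known from resting and differentiated cells, had a much lower level. It was at 59.2, 79.5 and 53.7 CPM in replicates A, B and C of WT, and at 61.4, 43.7 and 44.0 CPM in the knockout replicates. Knockout replicate A lay within the WT range and knockout replicates B and C lay below it. Ezh1 differed by -0.37 on the log2 scale (95% interval -0.70 to -0.04, adjusted p 0.139). With knockout replicate A left out the value was -0.55 (edgeR adjusted p = 0.00805), and with no filter on low counts it was -0.34 (edgeR adjusted p = 0.0328). With WT replicate B, the highest library, left out it was -0.18 (adjusted p = 0.538).

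The 2 catalytic subunits replace each other in the complex, so their ratio was taken within each library, where scaling between libraries cancels. Per kilobase, Ezh2 was 9.55-fold, 7.86-fold and 10.5-fold above Ezh1 in WT replicates A, B and C. In the knockout replicates the ratio was 8.07, 12.7 and 11.5. The ranges overlapped, and the mean log2 ratio differed by 0.20 (exact permutation test, two-sided, p = 0.4, where 3 against 3 cannot go below 0.1). Ezh2 made up 90.2% ± 1.33 of the catalytic transcripts per kilobase in WT and 91.2% ± 1.98 in the knockout (SD, n = 3 each).

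Eed (chr7:89954654-89980983, minus strand) encodes the WD40 subunit that reads H3K27me3 and stimulates the enzyme. Its level was 140, 142 and 151 CPM in replicates A, B and C of WT, and 154, 177 and 185 CPM in the knockout replicates. All knockout libraries lay above all WT libraries, with knockout replicate A 2.83 CPM above the highest WT library. The log2 change of 0.25 (95% interval 0.06 to 0.45) missed the threshold (edgeR adjusted p = 0.0832). With knockout replicate A left out it was 0.33 (edgeR adjusted p = 0.0134), and with no filter on low counts 0.28 (edgeR adjusted p = 0.0492). A noncoding gene on the opposite strand covers 12.6% of the exon bases of Eed, but it held 108 counts over all 6 libraries.

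Suz12 (chr11:79993106-80034123, plus strand), the scaffold that holds the core together, showed the smallest difference. It was at 367, 400 and 356 CPM in WT and at 403, 361 and 371 CPM in the knockout (replicates A, B and C). Knockout replicate A was the highest library and WT replicate C the lowest, and the groups overlapped. Suz12 differed by 0.01 on the log2 scale (95% interval -0.17 to 0.19, edgeR adjusted p = 0.941), and this small value turned below 0 under 5 alternatives given in the closing section.

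Mtf2 (chr5:108065742-108109004, plus strand) was the leading Polycomblike gene, with 92.2% ± 1.63 of the family's transcripts per kilobase in WT and 92.2% ± 1.27 in the knockout. Its level was 333, 354 and 379 CPM in replicates A, B and C of WT, and 370, 373 and 439 CPM in the knockout replicates. Knockout replicates A and B lay within the WT range. Mtf2 differed by 0.15 on the log2 scale (95% interval -0.05 to 0.34, edgeR adjusted p = 0.332). Exons of Tmed5 on the opposite strand cover 9.73% of the exon bases of Mtf2, with 3734 counts for Tmed5 over all libraries, so without a known strand setting some reads may belong to either gene.

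Phf19 (chr2:34893757-34913976, minus strand) and Phf1 (chr17:26933052-26937908, plus strand), the other two Polycomblike genes, were counted at low levels. Phf19 lay between 11.0 and 14.6 CPM in WT and between 12.4 and 16.2 CPM in the knockout, with a log2 fold change of 0.21 (95% interval -0.14 to 0.56, adjusted p 0.463). Phf1 lay between 8.45 and 12.8 CPM in WT and between 8.53 and 13.0 CPM in the knockout, with a log2 fold change of 0.12 (95% interval -0.32 to 0.55, adjusted p 0.774). For both genes the groups overlapped. Replicates of Phf1 differed by up to 1.51-fold within WT and 1.52-fold within the knockout, against at most 1.12-fold for Suz12.

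Accessory subunits of the 2 forms of PRC2 were compared at the level of transcripts only, and no protein or complex was measured. The ratio taken was the summed level per kilobase of Jarid2 and Aebp2 over that of Mtf2, Phf19 and Phf1. This ratio was 1.01, 0.932 and 1.003 in WT replicates A, B and C. It was 0.571, 0.728 and 0.674 in the knockout replicates. Every knockout library lay below every WT library, and the mean log2 ratio changed by -0.58, from -0.03 ± 0.06 to -0.61 ± 0.18 (SD, n = 3 each). The exact permutation test (two-sided) gave p = 0.1, the smallest value that 3 against 3 allows, so this test could not pass 0.05 with 3 libraries a group. With one library left out in turn the difference lay between -0.66 and -0.49. The ratio contains Jarid2 and is not independent of that gene's own change. Between the 2 members of its form, the share of Jarid2 was 76.1% ± 0.533 in WT and 72.1% ± 1.27 in the knockout.

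**Figure D2:**
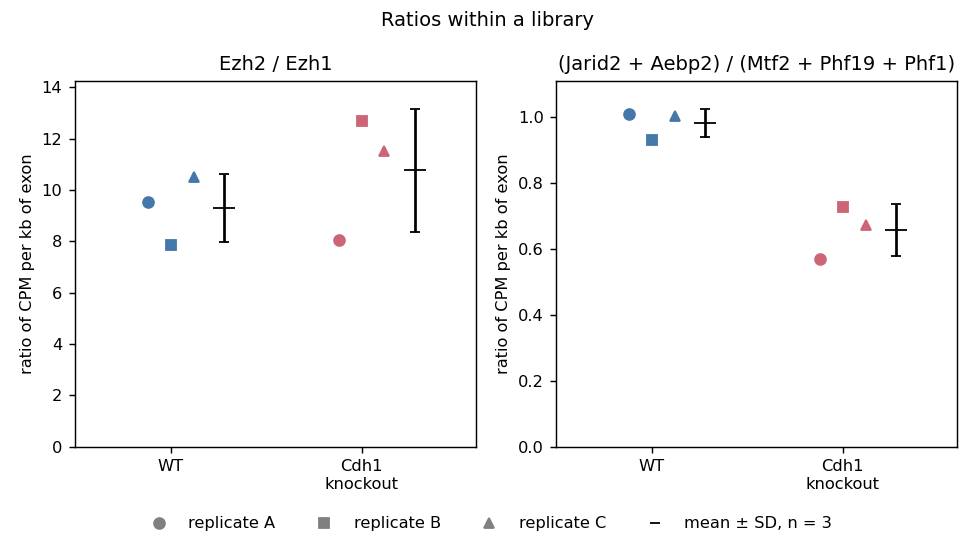
Ratios of transcript levels per kilobase of exon within each library (y axis, from 0), for Ezh2 over Ezh1 (left) and for Jarid2 plus Aebp2 over the 3 Polycomblike genes (right). Symbols mark replicates and bars the mean ± SD of 3 libraries. The left ratio overlapped between genotypes, and the right one was 0.932 to 1.01 in WT and 0.571 to 0.728 in the knockout.

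Other partners of PRC2 were taken from a list of 6 genes, of which 5 were in the table under these symbols and tested. Of these, 1 was called higher and 0 lower, against 7.6% and 5.71% of all tested genes. Epop, which joins the Polycomblike form and links it to elongin, was at 158, 125 and 223 CPM in replicates A, B and C of WT. In the knockout replicates it was at 183, 332 and 408 CPM. Knockout replicate A lay within the WT range, while B and C lay above it. Epop differed by 0.87 ± 0.23 (SE) on the log2 scale (edgeR adjusted p = 0.0225).

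The call of Epop did not hold without certain libraries or with DESeq2. Leaving out WT replicate A gave an adjusted p of 0.106, and leaving out WT replicate B gave 0.147. Leaving out knockout replicate B or C gave 0.0924 or 0.130, and DESeq2 gave 0.136. The call was kept with limma-voom (adjusted p = 0.0301). Rbbp4 and Rbbp7, the histone-binding subunits shared with other chromatin complexes, differed by 0.11 (adjusted p = 0.397) and 0.20 (adjusted p = 0.148) on the log2 scale. Their knockout libraries all lay above their WT libraries. Lcor, whose locus also encodes a PRC2 cofactor, stood at -0.14 on the log2 scale (adjusted p = 0.512), and Lcorl at 0.06 (adjusted p = 0.883).

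**Figure D3:**
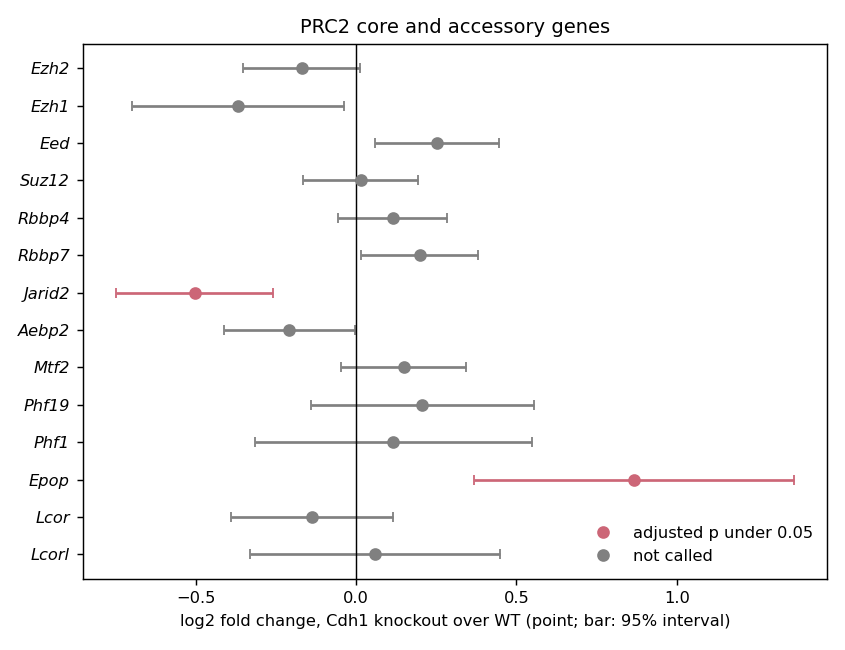
Log2 fold change of the knockout over WT (x axis) for the 9 PRC2 subunit genes and 5 further partners, from edgeR's quasi-likelihood fit. Points are estimates, bars 95% intervals, and red marks an adjusted p under 0.05. Jarid2 at -0.50 and Epop at 0.87 were called, and the other genes lay between -0.37 and 0.25.

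Genes whose libraries moved most like those of Ezh2 were found by the root mean square difference of log2 CPM, each gene centred on its mean over the 6 libraries. Among the 11370 genes whose mean count reached 100, the nearest were Ube2k (0.0180), Foxj3 (0.0225), Ube3a (0.0226), Nutf2 (0.0228) and Nup160 (0.0235). None of these 5 was called (adjusted p 0.183 to 0.348), and Ezh2 was chosen as the reference as the main catalytic subunit.

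PRC1 is the second Polycomb complex, a ubiquitin ligase for histone H2A that in part reads the PRC2 mark through its Cbx proteins. Of 31 listed PRC1 genes, all tested, 4 were called higher and 3 lower, against 7.6% and 5.71% of all tested genes, and the median log2 fold change was -0.04. Scml2 fell from 5.20 ± 0.182 to 2.61 ± 0.275 CPM, a log2 change of -0.99 (adjusted p = 0.0131). Bcorl1 and Bcor, a pair of related corepressors of variant PRC1, moved in opposite directions, with log2 fold changes of 0.74 (adjusted p 0.00413) and -0.56 (adjusted p 0.0111). Pcgf2, a partner of the ligase, stood at 0.35 on the log2 scale (adjusted p = 0.0312).

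These PRC1 calls, all from edgeR, were close to the threshold. Leaving out WT replicate A or B left 2 called genes each, leaving out knockout replicate B left 3 and leaving out knockout replicate C left 4. Over all tested genes the counts fell too, to 1374 of 17795 and 1470 of 17970 without WT replicates A and B. They were 1661 of 18020 and 1602 of 18098 without knockout replicates B and C. Among Scml2, Bcorl1, Bcor and Pcgf2 only Bcorl1 stayed under 0.05 with every library left out in turn, with an adjusted p of at most 0.0356. The highest adjusted p was 0.0554 for Scml2 (without WT replicate A), 0.0797 for Bcor (without WT replicate C) and 0.141 for Pcgf2 (without knockout replicate B).

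Enzymes that work against Polycomb silencing were taken as further lists. Of 8 genes of PR-DUB, the complex that removes the PRC1 mark, 1 was called higher and 2 lower, where 7.6% and 5.71% of all tested genes were. Asxl1, a subunit that activates the deubiquitinase, fell from 191 ± 14.95 to 125 ± 7.31 CPM, a log2 change of -0.61 (adjusted p = 0.000357). Bap1, the deubiquitinase itself, rose from 99.2 ± 2.53 to 156 ± 8.31 CPM, a log2 change of 0.65 (adjusted p = 0.000107). It lies on chromosome 14, whose median was 0.53. Mbd6 fell by 0.43 on the log2 scale (adjusted p = 0.0249), a call lost when WT replicate A (0.0901), WT replicate B (0.130), knockout replicate B (0.0656) or knockout replicate C (0.130) was left out.

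Of the 3 demethylase genes, Kdm6a, which removes H3K27 methylation, rose from 92.9 ± 3.28 to 137 ± 14.4 CPM, a log2 change of 0.56 (adjusted p = 0.000979). Uty, its relative on the Y chromosome, was counted at most 2 times in a knockout library. Set against a floor of 6 counts per library, this is at least 26.8-fold lower than in WT. The 6 tested genes of the Y chromosome had a median log2 fold change of -2.56. Kdm6b, the third gene, was not called. Of 15 tested trithorax COMPASS genes, the H3K4 methyltransferases and their partners, 0 were called by edgeR, DESeq2 or limma-voom. In edgeR 13.3% of all tested genes were called. At an unadjusted p under 0.05 in edgeR, 3 COMPASS genes were higher and 0 lower. Of all 17325 tested genes, 4622 passed that threshold in either direction. Without knockout replicate A, 3 COMPASS genes were called higher, against 1560 of all 18000 tested genes. Without WT replicate B, 1 was, against 893 of 17970.

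Hox genes are textbook targets of PRC2 in embryonic stem cells and were examined as 1 list. The table held 39 of them, of which 22 passed the filter on low counts. A gene high only in WT could pass that filter through WT alone, so counts over the genes that passed describe them and no more. Of the 22, 5 were called lower and 0 higher, against 5.71% and 7.6% of all tested genes. At an unadjusted p under 0.05, 14 were lower and 0 higher, where 4622 of all 17325 tested genes passed in either direction, and 21 had a log2 fold change below 0. Their median was -1.16, against -0.01 for all tested genes. In 12 of them every knockout library lay under every WT library, against 15% of all tested genes.

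The sum over all 39 Hox genes does not depend on the filter. It was 61.9, 69.6 and 91.4 CPM in replicates A, B and C of WT. In the knockout replicates it was 26.3, 35.5 and 46.9 CPM. The groups did not overlap, and the knockout mean was 48.7% of the WT mean. By cluster, the knockout mean was 47.8% of WT for the 11 Hoxa genes, 44.7% for the 10 Hoxb genes and 29.8% for the 9 Hoxc genes, with no overlap between genotypes. For the 9 Hoxd genes it was 88.2%, and the genotypes overlapped. The Hoxd sum was 6.21 CPM for WT replicate A, 6.72 for B and 12.1 for C. Knockout sums of 6.74, 7.43 and 7.92 CPM (A, B and C) lay above WT replicates A and B and below WT replicate C. Exons of Gm28230 (0 counts), on the same strand, cover 68.6% of the exon bases of Hoxd3 and 45.1% of those of Hoxd4. Hoxb3os (32 counts), on the opposite strand, covers 58.5% of those of Hoxb2 and 63.9% of those of Hoxb3. The effect of these shared bases on the sums was not tested.

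**Figure D4:**
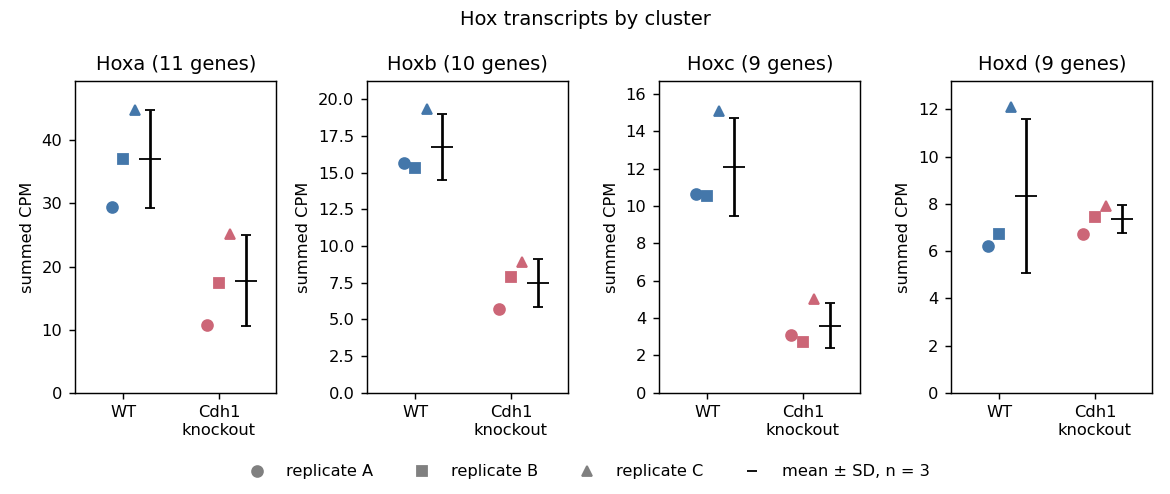
Summed CPM of all genes of each Hox cluster (y axis, from 0) in WT and Cdh1 knockout libraries. Symbols mark replicates and bars the mean ± SD of 3 libraries. Knockout libraries lay below WT libraries for Hoxa, Hoxb and Hoxc, and overlapped with them for Hoxd.

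Hoxb1 stood at -2.09 on the log2 scale (adjusted p = 0.00189) and Hoxb13 at -1.73 (adjusted p = 0.00417). Hoxc12 was counted at most 6 times in a knockout library, which against the floor is at least 6.40-fold lower than in WT (adjusted p = 0.000652). Hoxc13 stood at -1.37 on the log2 scale (adjusted p = 0.0127), a call lost when WT replicate C (adjusted p = 0.0679) or knockout replicate B (adjusted p = 0.0697) was left out. Without knockout replicate C, 9 of 24 tested Hox genes were called lower, against 645 of all 18098 tested genes. The trophoblast marker sum, most of it Tfap2c, was lower in all knockout libraries. The fibroblast sum was lower in knockout replicates B and C, and the primitive endoderm sum was higher in all knockout libraries. Within the knockout, the Hox and primitive endoderm sums were both lowest in replicate A and highest in replicate C. The part of these marker sums in the Hox values was not tested.

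A second list of 56 developmental regulators, chosen as genes known to carry PRC2 in embryonic stem cells, moved in both directions. Of the 37 that passed the filter, 8 were called higher and 3 lower, against 7.6% and 5.71% of all tested genes, with a median log2 fold change of 0.13. Summed over all 56, their level lay between 157 and 192 CPM in WT and between 175 and 228 CPM in the knockout, with overlap. Pax6, an eye and neural factor, fell from 17.3 ± 3.82 to 1.98 ± 0.680 CPM, a log2 change of -3.14 (adjusted p = 3.5e-06). Olig3, a neural factor, fell from 3.03 ± 0.0894 to 0.435 ± 0.379 CPM, a log2 change of -2.74 (adjusted p = 0.00510). With this low knockout level, the change of Olig3 lay between -3.61 and -2.20 over 16 alternatives. Sox17, an endoderm factor that is also one of the 6 primitive endoderm markers and lies on chromosome 1 (median -0.33), rose from 1.96 ± 0.767 to 8.67 ± 2.11 CPM, a log2 change of 2.15 (adjusted p = 0.000238).

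Alx4 stood at 2.26 on the log2 scale (adjusted p = 0.0180), at 1.19 ± 0.368 CPM in the knockout. Its level was low, as 6 counts correspond to 0.26 to 0.33 CPM in these libraries. Over 15 alternatives the log2 change of Alx4 lay between 1.91 and 3.02. Foxa2, another endoderm factor, was counted at most 6 times in a WT library, and its knockout mean was at least 3.57-fold higher against the floor (adjusted p = 0.0298). The call of Alx4 was lost when WT replicate A (adjusted p = 0.0970), WT replicate B (0.103) or knockout replicate C (0.110) was left out. That of Foxa2 was lost when any 1 WT replicate (adjusted p 0.0958 to 0.112) or knockout replicate C (0.180) was left out, and with limma-voom (0.0674). The number of called regulators was 7 of 40 tested without WT replicate A and 7 of 41 without knockout replicate C. Over all tested genes the number called was 1374 of 17795 and 1602 of 18098.

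**Figure D5:**
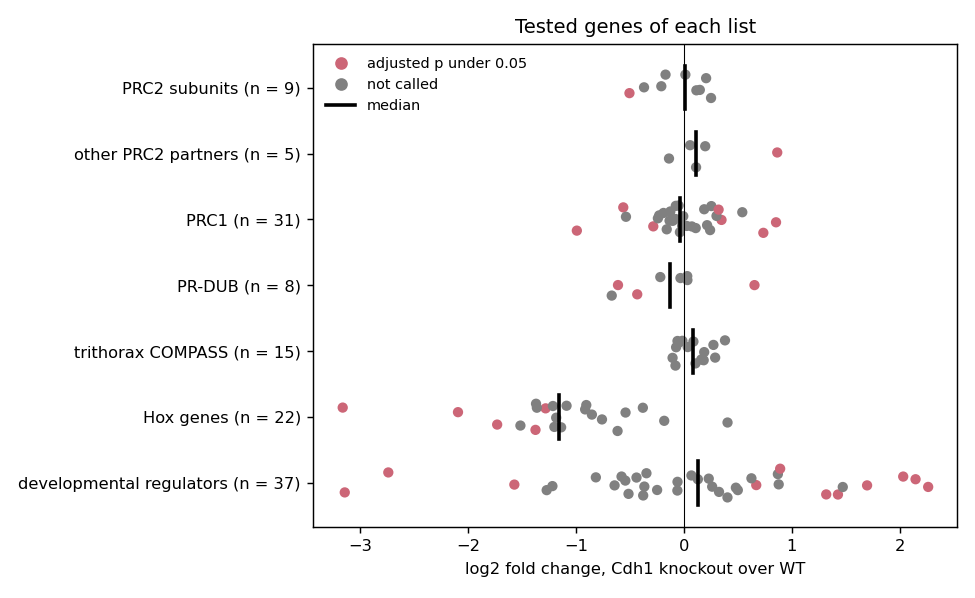
Log2 fold change of the knockout over WT (x axis) for every tested gene of 7 lists. Each point is 1 gene, red marks an adjusted p under 0.05, and black bars mark list medians. The PRC2 subunits lay around 0 with a median of 0.01, the Hox genes lay mostly below 0 with a median of -1.16, and the developmental regulators spread to both sides.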

How the data were processed

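The deposited data were 1 table of raw gene counts, without normalization, with exon coordinates and exon length in bases. The submitters' processing notes name cutadapt 2.10, STAR 2.7.5b, featureCounts 2.0.1 and GRCm38. The strand setting is not given in the sources used here, although the labels' protocols name a directional kit. Symbols came from GENCODE M21, with 55141 of 55401 identifiers matched. The exon bases of all 9 genes equalled those of its basic transcript set.

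Among counts from 1 to 10, 78.1% to 83.1% in a library were even, against 50.2% to 52.1% over 1000. Whether both mates of a pair were counted is not stated. The floor was set at 6 counts per library to allow for it and covers counting error only.

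Genes were filtered with filterByExpr (smallest count 10, smallest total 15), scaled by TMM and fitted in edgeR 4.0.16 (R 4.3.3) by quasi-likelihood with genotype as its only term. P-values were adjusted by Benjamini-Hochberg over 17325 genes and called under 0.05. CPM used TMM-scaled library sizes, and standard errors were derived from the F statistic. The procedure was tested on simulated data.

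Named were all 9 genes, Cdh1, every partner gene, and up to 5 called genes with the largest changes in each other list. Kdm6b and the marker genes are mentioned beside them. Some genes that this rule names are not reported here. The members and lists were chosen with earlier results of these data known. Alternatives were other scalings and filters, DESeq2 1.42.0, limma-voom (limma 3.58.1), a replicate block, counts divided by 2, a stricter threshold, removal of chromosomes 1, 14 and Y, and leaving out each library.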

Additional observations from a re-analysis of the deposited data

How the results depend on the processing

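The count of 2307 called genes was 1535 without chromosomes 1, 14 and Y and 1242 at an adjusted p under 0.01, and lay between 1374 (without WT replicate A) and 2784 (without knockout replicate A) with one library left out. It was 1470 without WT replicate B. The count of called PRC2 subunit genes, 1, was 3 without a filter on low counts and lay between 0 (no WT replicate C) and 3 (no knockout replicate A) with one library left out. Jarid2 kept its direction in all 17 alternatives, from -0.60 to -0.37. The log2 fold change of Suz12 turned to -0.021 with upper quartile scaling, -0.020 with library totals and -0.0044 with a mean of at least 50 counts. With one library left out it lay between -0.033 (without knockout replicate A) and 0.065 (without WT replicate B), and was -0.01 without WT replicate C. That of Phf1 lay between -0.0015 (without WT replicate C) and 0.30 (without WT replicate A), and that of Lcorl was -0.05 without WT replicate C, and -0.20 when knockout replicate A was left out. None of these was called. Of the other lists, 11 Hox and 2 COMPASS genes were called without a filter, 2 Hox genes when the mean had to reach 50 counts, 0 partners with DESeq2, 1 COMPASS gene with the replicate block, 1 demethylase without chromosomes 1, 14 and Y, and 2 PRC1 genes, 0 partners and 7 developmental regulators at an adjusted p under 0.01. The replicate letters did not pair the samples consistently. The correlation of deviations from the group mean was 0.162 for A, -0.154 for B and 0.399 for C, the highest of any pair. WT replicate B correlated best with knockout replicate A (0.267). With the letter as a replicate block 2686 genes and 1 subunit gene, Jarid2, were called. Paired by letter, the Jarid2 plus Aebp2 to Polycomblike difference had p = 0.25, the smallest that an exact sign permutation of 3 pairs gives. At this depth 17 of the 39 Hox genes did not pass the filter on low counts, and these were left out of the test.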
